A study of Mus musculus with 12 samples.

Results

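Efhd1, Kcnj3 and Fndc3c1 are 3 genes, of 18784 measured, that were chosen by their knockdown differences on these arrays. They were chosen as falling strongly when Jarid1b was knocked down in mouse embryonic stem cells and not in neural progenitor cells. In the latter, Fndc3c1 still had a small difference of -0.26 (log2), with every knockdown array below every control array. Each was read by 1 probe set with 1 annotated symbol: Efhd1 (Entrez gene 98363) on chromosome 1, Kcnj3 (16519) on chromosome 2 and Fndc3c1 (333564) on chromosome X. The rule names no threshold. Both knockdown differences chose the genes, so for them these differences are a description and carry no test.

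The samples were 12 Affymetrix mouse gene arrays of total RNA, 3 in each of 4 groups: embryonic stem cells (ESC) with an shRNA against Jarid1b (LKOJarid1b), ESC with a scrambled shRNA (LKOScr), and neural progenitor cells (NPC) with the LKOJarid1b or the LKOScr construct. The ESC line was E14TG2a.4, which grows without feeder cells, here on gelatin with serum and LIF. All 4 groups carried a lentiviral shRNA vector, and the labels name puromycin selection of the transduced ESC and 1 Jarid1b shRNA. The labels do not say whether arrays of a group came from separate cultures, so a p-value measures only the spread between arrays, which may be technical.

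Jarid1b, now named Kdm5b, is a histone demethylase that acts on methylated lysine 4 of histone H3, a mark of active promoters. Efhd1 encodes a calcium-binding protein of the EF-hand family found at the inner mitochondrial membrane. Kcnj3 encodes a subunit of inwardly rectifying potassium channels, which the beta and gamma subunits of G proteins open after inhibitory receptors, such as the GABA-B receptor, are activated. These channels are best known from neurons and the atrium of the heart, where they lower excitability. Fndc3c1 belongs to a small family of genes with fibronectin type III repeats.

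The targeted gene was checked first. Kdm5b had a level (log2, as normalized by RMA, here and below) of 10.64, 10.90 and 10.50 in knockdown ESC, against 12.25, 12.47 and 12.50 in control ESC. In NPC it had 10.38, 10.48 and 10.54 in knockdown and 11.24, 11.15 and 11.30 in control cells. It was lower on every knockdown array than on every control array of the same state, with differences of -1.72 (3.31-fold) in ESC and -0.76 (1.7-fold) in NPC. The fall of the targeted gene was thus smaller in NPC, by 0.96 ± 0.16 (SE, limma, adjusted p = 0.0172), a call lost without control ESC replicate 3 (0.0591) or knockdown NPC replicate 2 (0.0512). Arrays of a group correlated at 0.992 to 0.997 across genes. Between NPC and ESC, all 10 pluripotency markers fell and all 10 neural progenitor markers rose (limma, adjusted p under 0.05). Of all genes, 31.1% were called lower and 27.3% higher in NPC. The labelled states matched these markers.

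Because the genes fell together in knockdown ESC and the targeted enzyme acts at promoters, their promoters are shown, from 250 bases before to 50 bases after the annotated start (RefSeq, GRCm38.p6, 5′ to 3′ along the gene, with CpG dinucleotides in capitals). All 3 genes had an entry.
Efhd1 (chr1:87264103-87264402, plus strand): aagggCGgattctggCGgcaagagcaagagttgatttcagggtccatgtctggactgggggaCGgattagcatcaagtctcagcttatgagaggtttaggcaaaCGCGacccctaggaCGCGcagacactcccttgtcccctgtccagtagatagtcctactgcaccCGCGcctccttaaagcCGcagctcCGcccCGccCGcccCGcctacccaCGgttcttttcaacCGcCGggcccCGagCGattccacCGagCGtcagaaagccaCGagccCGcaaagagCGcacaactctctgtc
Kcnj3 (chr2:55435720-55436019, plus strand): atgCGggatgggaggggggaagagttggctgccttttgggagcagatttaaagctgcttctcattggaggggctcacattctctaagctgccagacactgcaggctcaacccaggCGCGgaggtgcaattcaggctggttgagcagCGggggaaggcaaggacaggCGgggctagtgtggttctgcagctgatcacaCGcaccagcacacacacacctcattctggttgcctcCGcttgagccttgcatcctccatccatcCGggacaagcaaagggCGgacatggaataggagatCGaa
Fndc3c1 (chrX:106485180-106485479, minus strand): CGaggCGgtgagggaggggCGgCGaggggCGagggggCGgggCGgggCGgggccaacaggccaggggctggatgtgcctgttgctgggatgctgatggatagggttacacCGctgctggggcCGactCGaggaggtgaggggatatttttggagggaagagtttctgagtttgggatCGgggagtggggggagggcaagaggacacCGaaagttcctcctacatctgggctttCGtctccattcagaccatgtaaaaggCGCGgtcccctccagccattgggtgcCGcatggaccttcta

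The promoters differed in CpG content. Efhd1 held 24 CpG, more than 80.0% of 32851 mouse promoter windows of the same length. Fndc3c1 held 17 and Kcnj3 held 10, against a median of 7 and quartiles of 3 and 20. Of the short motifs searched on both strands, the GC box (GGGCGG) occurred 4 times in Efhd1, 4 times in Fndc3c1 and 1 time in Kcnj3, and 35.7% of all windows hold it. The CCAAT box (CCAAT) was present in Kcnj3 and Fndc3c1 and in 37.4% of all windows. None of the 3 windows held TATAAA (13.6% of all), the E-box CACGTG (7.15%) or CTTTGA, the core bound by Lef1 and Tcf factors (16.0%). None of these motifs contains another, and a match is a description of the window only.

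Among the 3 genes, Efhd1 had the most tightly grouped control ESC arrays. Its level was 7.90, 8.07 and 8.42 in knockdown ESC, against 9.74, 10.19 and 9.87 in control ESC. The groups lay apart, with 1.32 between the highest knockdown and the lowest control array. The means were 8.13 ± 0.26 and 9.93 ± 0.23 (SD, n = 3 each), a difference of -1.80 ± 0.16 (SE), or 3.49-fold lower in knockdown cells. In NPC its level was 7.23, 7.02 and 7.20 in knockdown cells and 7.27, 6.82 and 7.13 in control cells. These arrays overlapped, and the difference was 0.080 ± 0.16 (SE).

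Kcnj3 had 7.84, 7.91 and 7.87 in knockdown ESC, against 8.995, 9.89 and 10.23 in control ESC. The knockdown arrays were close together while the control arrays spread widely, with an SD of 0.032 and 0.64 (n = 3 each). The difference was -1.83 ± 0.25 (SE), or 3.55-fold lower. In NPC Kcnj3 had 6.28, 6.60 and 6.38 in knockdown cells and 6.61, 5.95 and 6.53 in control cells. Again these arrays overlapped, with a difference of 0.058 ± 0.25 (SE). The NPC levels were near the lower quartiles of the arrays, 5.84 to 6.11, where RMA values are compressed, and on control NPC replicate 2 the level was under that array's own lower quartile. The values come with no detection calls.

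Fndc3c1 had 8.21, 7.75 and 7.08 in knockdown ESC, against 9.05, 9.70 and 10.05 in control ESC. Within each group the arrays spread widely, with an SD of 0.57 and 0.50 (n = 3 each), but the groups did not overlap. The difference was -1.91 ± 0.26 (SE), or 3.77-fold lower. In NPC it had 11.66, 11.62 and 11.80 in knockdown cells and 11.95, 11.94 and 11.97 in control cells. Here too every knockdown array lay below every control array, and the difference was -0.26 ± 0.26 (SE). That SE is estimated from all 12 arrays; within NPC alone the SD was 0.093 in knockdown and 0.015 in control cells.

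**Figure D1:**
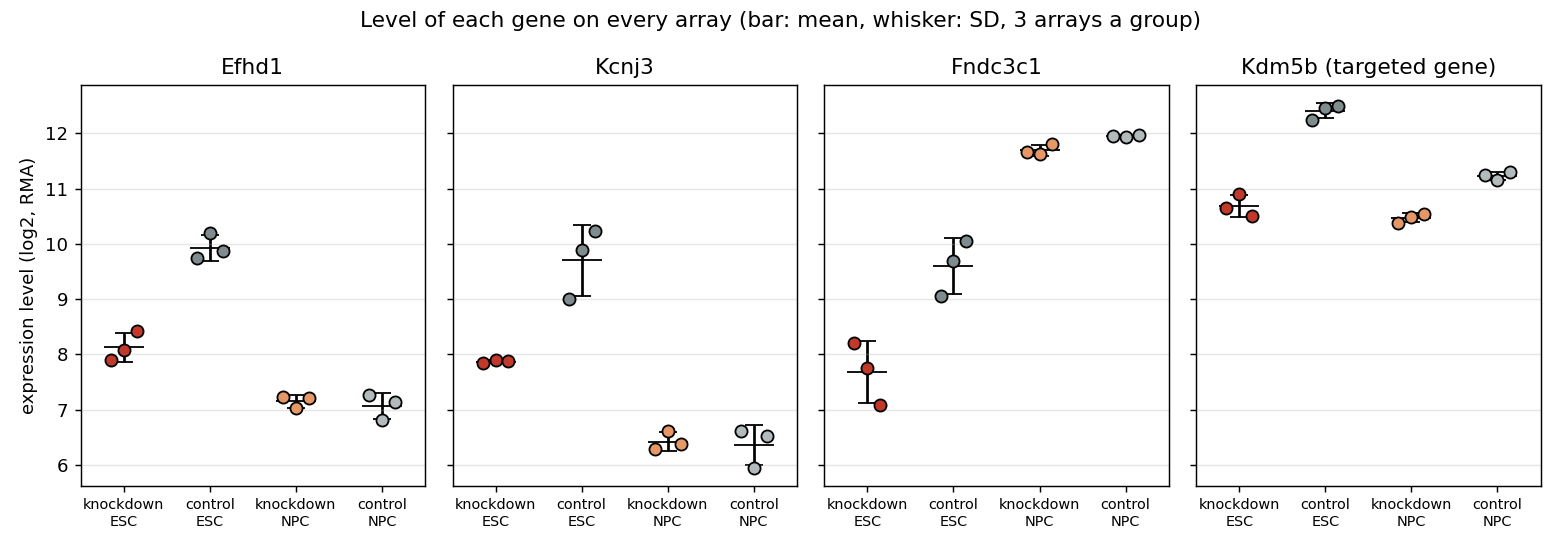
Level (log2, vertical axis) of Efhd1, Kcnj3, Fndc3c1 and the targeted gene Kdm5b on each of the 12 arrays, by group; points are arrays, bars are means and whiskers are SD (n = 3). In ESC every knockdown array lies below every control array for all 4 genes, and the NPC groups of Efhd1 and Kcnj3 overlap.

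Knockdown arrays lay wholly below control arrays in ESC for 13.6% of all genes, and for all 3 of these genes by the choice described above, so nothing is read from that count. The falls ranked 5 (Fndc3c1), 9 (Kcnj3) and 10 (Efhd1) by size. Larger falls were those of Gbp2 (-2.56), Lef1 (-2.30), Sema6a (-2.07) and Thbs1 (-1.95), with differences in NPC of 0.09, -0.59, -0.19 and -0.11. Tagln (-1.89), Car3 (-1.85) and Car2 (-1.84) lay between them, and Ccn1 (-1.79) and Gbp2b (-1.75) came next. Their differences in NPC were -0.59, -0.24, 0.57, 0.07 and -0.04. In NPC, knockdown arrays lay wholly below control arrays for 5.91% of genes, Fndc3c1 among them. With each array left out in turn, the ESC difference stayed between -1.95 and -1.67 for Efhd1, -2.18 and -1.57 for Kcnj3, and -2.19 and -1.62 for Fndc3c1.

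Single arrays moved the genes in different ways. Control ESC replicate 1 had the lowest level of all 3 genes among control ESC arrays, and also the lowest Kdm5b. Among knockdown ESC arrays, replicate 3 had the lowest Kdm5b and the lowest Fndc3c1 but the highest Efhd1. With 3 arrays a group these orders are given as values only.

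Some markers of other cell types moved with the knockdown in ESC, where 1.84% of all genes were called higher and 3.37% lower. Sums are given on the linear scale (2 to the power of each value, in array intensity units). The summed level of 8 neuronal markers was 6949 to 8638 in knockdown ESC and 8757 to 9094 in control ESC. Tubb3, Map2 and Nefl were lower and the other 5 were not called. Stmn2, among those 5, was the highest of the 8 in ESC, with means of 12.47 in knockdown and 12.51 in control cells. It was 2.72-fold lower in NPC over both shRNAs, so this sum gives no measure of neurons in ESC. The sum of 8 fibroblast and mesenchyme markers was 1397 to 1672 in knockdown ESC and 1370 to 3447 in control ESC, with only Tagln called. The sum of 10 pluripotency markers was 64162 to 66274 in knockdown ESC and 59835 to 61540 in control ESC, with only Tcl1 called. Of 10 neural progenitor markers 1 rose (Msi1) and 2 fell (Pax6 and Slc1a3), with sums of 9433 to 9918 in knockdown ESC and 10253 to 11830 in control ESC. Of 7 endothelial markers only Pecam1 was called and rose, with sums of 2647 to 2841 in knockdown ESC and 2003 to 2236 in control ESC. Pecam1 was the highest of the 7 in ESC, with means of 10.3 in knockdown and 9.43 in control cells. It was 9.23-fold lower in NPC over both shRNAs, so this sum gives no measure of endothelial cells in ESC. Of 6 endoderm markers Dab2 fell, with sums of 867 to 982 in knockdown ESC and 997 to 1091 in control ESC. No germ cell marker (5) or glial marker (6) was called. In bulk RNA, fewer cells of a type and less RNA per cell cannot be told apart, and the part of these shifts in the falls of the 3 genes was not tested.

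In NPC, germ cell, endothelial and pluripotency markers were called with the knockdown, beside 1.03% of all genes. All 5 germ cell markers rose, with sums of 1899 to 3409 in knockdown NPC and 396 to 716 in control NPC. Their sums in ESC were 3057 to 3895 in knockdown and 3072 to 3799 in control cells. Of the 5, 4 were lower and 1 higher in NPC than in ESC over both shRNAs. This sum thus gives no measure of germ cells in NPC. Of 7 endothelial markers 3 fell, with sums of 997 to 1154 in knockdown NPC and 1474 to 2766 in control NPC. Of 10 pluripotency markers 4 rose, with sums of 5613 to 8178 in knockdown NPC and 4783 to 6062 in control NPC. The sums of neuronal markers were 10481 to 10931 in knockdown NPC and 11652 to 12761 in control NPC, and those of fibroblast and mesenchyme markers 1757 to 2117 in knockdown NPC and 2301 to 3666 in control NPC, with no gene of either list called. The part of these shifts in the NPC values of the 3 genes was not tested.

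The passage from ESC to NPC moved the 3 genes in opposite directions. Efhd1 and Kcnj3 were lower in NPC and Fndc3c1 was higher. This was tested on the mean of both NPC groups minus the mean of both ESC groups, which enters neither knockdown difference, although the arrays and the estimate of spread are the same. Efhd1 fell by 1.92 ± 0.11 (SE), or 3.78-fold (limma, adjusted p = 4.58e-09). Kcnj3 fell by 2.40 ± 0.18 (SE), or 5.26-fold (limma, adjusted p = 5.61e-08). Fndc3c1 rose by 3.18 ± 0.18 (SE), or 9.07-fold (limma, adjusted p = 3.96e-09). All 6 NPC arrays lay below all 6 ESC arrays for Efhd1 and Kcnj3, as for 19.9% of all genes, and above them for Fndc3c1, as for 19.6%. State changes were common: 31.1% of genes were called lower and 27.3% higher in NPC.

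The size of the state difference was not the same under each shRNA. Efhd1 was 1.97-fold lower in NPC than in ESC among knockdown cells and 7.26-fold lower among control cells. Kcnj3 was 2.74-fold lower among knockdown cells and 10.1-fold lower among control cells. Fndc3c1 was 16.1-fold higher among knockdown cells and 5.11-fold higher among control cells. These folds share arrays with the differences that chose the genes and are given with no test.

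The order of the groups therefore differed between the genes. For Efhd1 and Kcnj3, control ESC were highest, knockdown ESC lay between, and the NPC groups were lowest and overlapped. For Fndc3c1, control NPC were highest, followed by knockdown NPC, control ESC and knockdown ESC, with no overlap between neighbours in that order. So knockdown ESC lay on the NPC side of control ESC for Efhd1 and Kcnj3, and on the far side from NPC for Fndc3c1. In control ESC all 3 genes lay between the 74.8 and 79.4 percentiles of genes. In control NPC, Fndc3c1 was at the 97.5 percentile, Efhd1 at 40.5 and Kcnj3 at 30.4. These percentiles compare probe set values, which are not corrected for probe affinity, and so are rough.

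**Figure D2:**
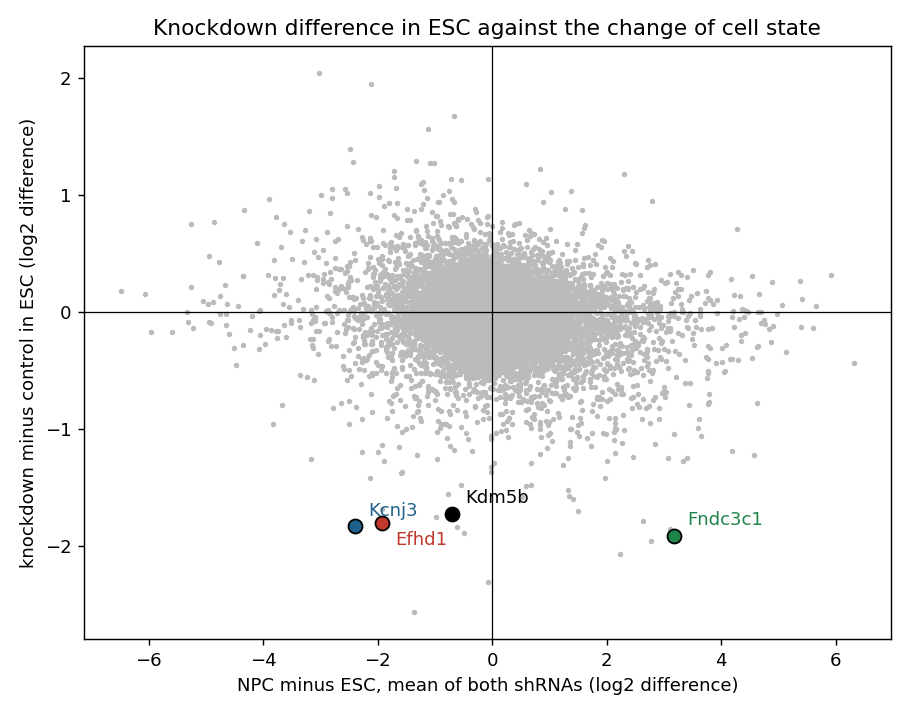
Knockdown minus control in ESC (log2, vertical axis) against the mean of both NPC groups minus the mean of both ESC groups (log2, horizontal axis); each grey point is 1 of 18784 genes. Efhd1 (-1.92) and Kcnj3 (-2.40) lie to the left and Fndc3c1 (3.18) to the right at similar heights, with Kdm5b beside them.

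The genes with the most similar profile were found by the root-mean-square difference over the 12 arrays, after each gene's own mean was taken off, among 18082 genes. Efhd1 and Kcnj3 were close to each other, each ranking 4 for the other at 0.368 log2 units. Fndc3c1 was far from both, at ranks 17950 and 17944 in the orders of Efhd1 and Kcnj3. Kdm5b ranked 382 for Efhd1, 704 for Kcnj3 and 14689 for Fndc3c1. All profiles come from the same 12 arrays, and much of each is set by the state difference and by the knockdown difference that chose the genes.

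Nearest to Efhd1 was Rsph4a (0.297), a radial spoke gene of motile cilia, with means of 7.02 in knockdown ESC, 8.70 in control ESC, 6.01 in knockdown NPC and 5.84 in control NPC. Next were the calpain protease gene Capn3 (0.343), the membrane metalloproteinase gene Mmp25 (0.358), Kcnj3 and the de novo DNA methyltransferase gene Dnmt3b (0.373). Nearest to Kcnj3 was the forkhead factor gene Foxi3 (0.301), with means of 8.46 in knockdown ESC, 9.88 in control ESC, 7.08 in knockdown NPC and 6.99 in control NPC. Dnmt3b (0.338), Rsph4a (0.361), Efhd1 and the surface peptidase gene Dpp4 (0.391) followed. Rsph4a and Dnmt3b thus stood near both genes.

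Nearest to Fndc3c1 was the carbonic anhydrase gene Car3 (0.191), with means of 6.36 in knockdown ESC, 8.21 in control ESC, 10.27 in knockdown NPC and 10.51 in control NPC. The heparan sulfate sulfotransferase gene Hs6st2 (0.318), the protein kinase A inhibitor gene Pkia (0.324), the ephrin ligand gene Efnb2 (0.359) and the zinc finger gene Zfp608 (0.388) followed. All of these were lower in knockdown ESC than in control ESC, by 1.04 to 1.85 log2 units, and all were higher in NPC. Over the 4 group means in place of the 12 arrays, 2 of the 5 nearest genes were shared for Efhd1, 4 of 5 for Kcnj3 and 4 of 5 for Fndc3c1.

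**Figure D3:**
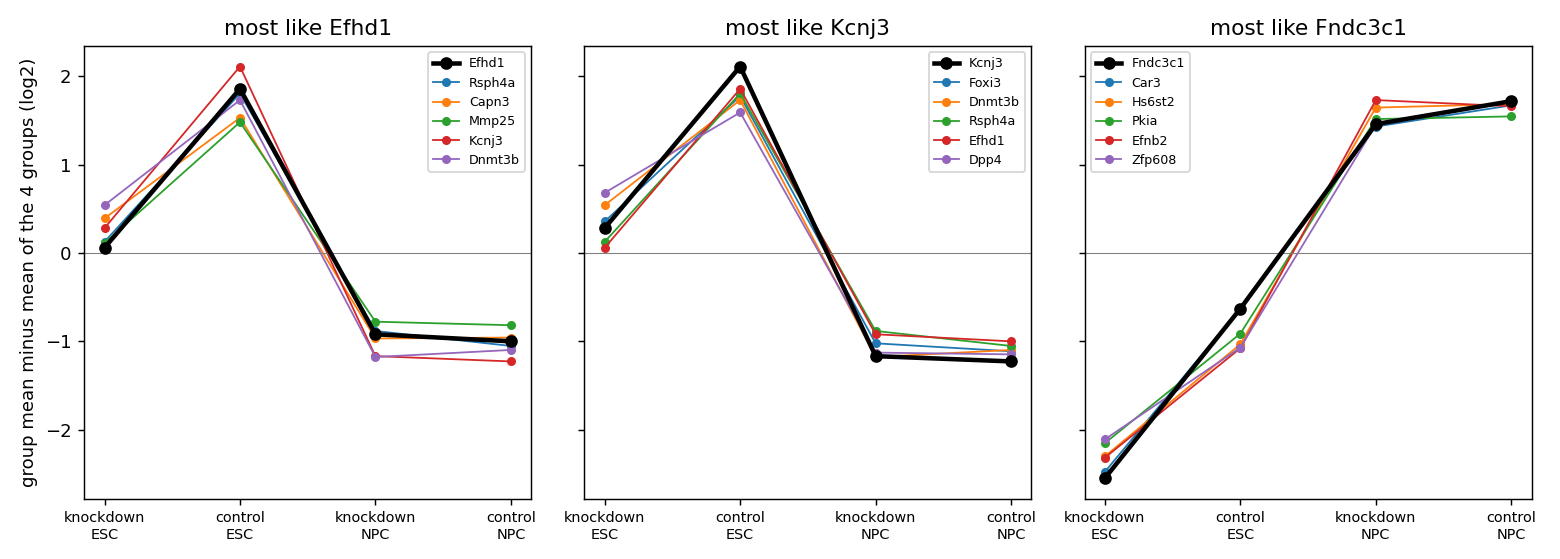
Group means minus the mean of the 4 groups (log2, vertical axis) for each gene (black) and the 5 genes with the smallest root-mean-square difference from it over the 12 arrays. Control ESC form the peak for Efhd1 and Kcnj3, while for Fndc3c1 knockdown ESC form the low point and both NPC groups lie high.

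Among genes that handle calcium in mitochondria, as Efhd1 does, 1 moved. Of 19 measured genes of mitochondrial calcium handling, 0 rose and 1 fell in knockdown ESC, where 5.21% of all genes were called (1.84% higher and 3.37% lower). The list's median difference was -0.053, beside 0.017 over all genes. The one that fell was Slc25a24, a calcium-regulated carrier of ATP-Mg and phosphate in the inner mitochondrial membrane. It changed by -0.99 ± 0.13 (SE, limma, adjusted p = 0.00298), with means of 6.65 in knockdown ESC and 7.63 in control ESC. Its difference in NPC was -0.12, and the effects differed by 0.86 (limma, adjusted p = 0.0397), a call that 9 of the 12 arrays ended when left out (adjusted p of 0.0577 to 0.115 for those) and that a replicate block ended (0.0560). Like Fndc3c1, and unlike Efhd1, it was higher in NPC, by 2.15 (limma, adjusted p = 1.92e-10).

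Efhd2, the closest relative of Efhd1, was counted in that list, which is no claim that it acts in mitochondria. Its means were 10.02 in knockdown ESC and 9.58 in control ESC. Its difference of 0.44 ± 0.13 (SE) was the largest positive one of the list and did not pass the test (limma, adjusted p = 0.0756). It passed without control ESC replicate 1 (adjusted p = 0.0175) or control NPC replicate 2 (0.0431). The channel gene of the mitochondrial calcium uniporter, Mcu, had 9.10 in knockdown ESC and 8.72 in control ESC (difference 0.38 ± 0.10, SE, limma, adjusted p = 0.0528), and its regulator Micu2 had 8.42 in knockdown ESC and 8.92 in control ESC (-0.50 ± 0.15, SE, adjusted p = 0.0768). Mcu passed without control ESC replicate 1 (adjusted p = 0.0245) or control NPC replicate 2 (0.0453), and Micu2 without knockdown ESC replicate 1 (0.0338). Of 16 other EF-hand domain genes, Efhd2 included, 0 passed the test in either direction in ESC or NPC. Of all genes, 5.21% were called in ESC and 1.03% in NPC. Several of the 16 lay under every array's lower quartile and could hardly show a change. The median difference of the 16 in ESC was 0.001. The lowest of them was Efcab12 at -0.38 ± 0.11 (SE, limma, adjusted p = 0.0623), which passed without control ESC replicate 1 (0.0320) or knockdown ESC replicate 2 (0.0482).

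The partner subunits of Kcnj3 stayed low in every group. Channels with Kcnj3 are built with Kcnj5, Kcnj6 or Kcnj9. Kcnj5 had means of 6.11 in knockdown ESC, 5.98 in control ESC, 5.95 in knockdown NPC and 5.82 in control NPC. Kcnj6 lay between 4.73 and 4.91 and Kcnj9 between 6.71 and 6.86 over the 4 groups. All lay under the array medians of 7.70 to 7.79, and Kcnj6 under the lower quartiles, where a gene cannot be told from an absent one.

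Of 14 other inward rectifier genes, 1 rose and 0 fell in knockdown ESC, beside 1.84% and 3.37% of all genes, and the median difference was 0.138, beside 0.017 over all genes. The one that rose was Kcnj12, which forms strongly rectifying channels of resting cells, at 0.60 ± 0.13 (SE, limma, adjusted p = 0.0193). Its means were 6.79 in knockdown ESC and 6.20 in control ESC. Its control ESC arrays, at 6.04 to 6.34, lay near the arrays' lower quartiles, so the size is rough. It lost the call without control ESC replicate 3 (adjusted p = 0.111), knockdown ESC replicate 1 (0.0661) or knockdown ESC replicate 2 (0.0657). The lowest of the family was Kcnj14 at -0.33 ± 0.16 (SE, limma, adjusted p = 0.296). Some of the 14, such as Kcnj6, lay under the lower quartiles in every group and could hardly show a change.

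Upstream of Kcnj3 channels, genes of the inhibitory receptor pathway were called in both directions. Of 30 measured receptor, G protein and regulator genes, 2 rose and 1 fell in knockdown ESC, beside 1.84% and 3.37% of all genes. Their median difference was 0.074, beside 0.017 over all genes. Gabbr1, a subunit of the GABA-B receptor, rose by 0.81 ± 0.15 (SE, limma, adjusted p = 0.00995), with means of 9.97 in knockdown ESC and 9.16 in control ESC. Leaving out control ESC replicate 3 ended this call (adjusted p = 0.0611). Gnai1, an inhibitory alpha subunit, fell by 0.77 ± 0.091 (SE, limma, adjusted p = 0.00171), with means of 8.80 in knockdown ESC and 9.57 in control ESC.

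Gng7, a gamma subunit, rose by 0.42 ± 0.11 (SE, limma, adjusted p = 0.0424), and 8 of the 12 arrays ended that call when left out (adjusted p of 0.0501 to 0.203 for those). The knockdown effects in NPC and ESC differed by -1.06 for Gabbr1 (limma, adjusted p = 0.0356) and by 0.62 for Gnai1 (limma, adjusted p = 0.0397). Left-out arrays ended the first call in 7 of 12 fits and the second in 9 of 12, with adjusted p up to 0.102 and 0.115, and a replicate block ended the second (0.0617). In NPC 0 of the 30 genes passed, where 1.03% of all genes did; the smallest adjusted p was 0.0916, for Rgs4 (-0.77).

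Between states, more genes of this pathway rose than fell. Of the 30, 15 were higher and 5 lower in NPC than in ESC, beside 27.3% and 31.1% of all genes. Drd2, the dopamine receptor gene, was higher by 3.11 ± 0.10 (SE, limma, adjusted p = 1.82e-11). Gnao1, the alpha subunit abundant in neurons, was higher by 2.08 ± 0.081 (SE, limma, adjusted p = 1.01e-10), with means of 10.04 in knockdown NPC and 10.19 in control NPC. The channel subunit gene Kcnj3 itself was lower by 2.40 there.

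Relatives of Fndc3c1 showed smaller differences, in both directions. Of 10 other genes with fibronectin type III domains in their name, 1 rose and 1 fell in knockdown ESC, beside 1.84% and 3.37% of all genes, with a median difference of 0.021. Fndc3a had 10.74 in knockdown ESC and 10.75 in control ESC. Fndc3b rose by 0.52 ± 0.12 (SE, limma, adjusted p = 0.0233), with means of 10.08 in knockdown ESC and 9.55 in control ESC. Fndc4 fell by 0.54 ± 0.13 (SE, limma, adjusted p = 0.0319). Fndc1 had the largest positive difference, 0.82 ± 0.24 (SE), and did not pass (limma, adjusted p = 0.0690) except without knockdown ESC replicate 1 (0.00570) or with array weights (0.0241).

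Left-out arrays ended calls here too. Fndc3b lost it without control ESC replicate 2 (adjusted p = 0.0802), control ESC replicate 3 (0.112) or knockdown ESC replicate 3 (0.109). Fndc4 lost it without control ESC replicate 2 (0.0802), control ESC replicate 3 (0.166), knockdown ESC replicate 1 (0.0624) or knockdown ESC replicate 3 (0.137). In NPC 0 of the 10 passed, where only 1.03% of all genes did. Between states, Fndc5, the precursor gene of irisin, rose by 2.90 in NPC (limma, adjusted p = 3.53e-10) and Fndc4 by 1.87 (adjusted p = 9.25e-10), the same direction as Fndc3c1.

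**Figure D4:**
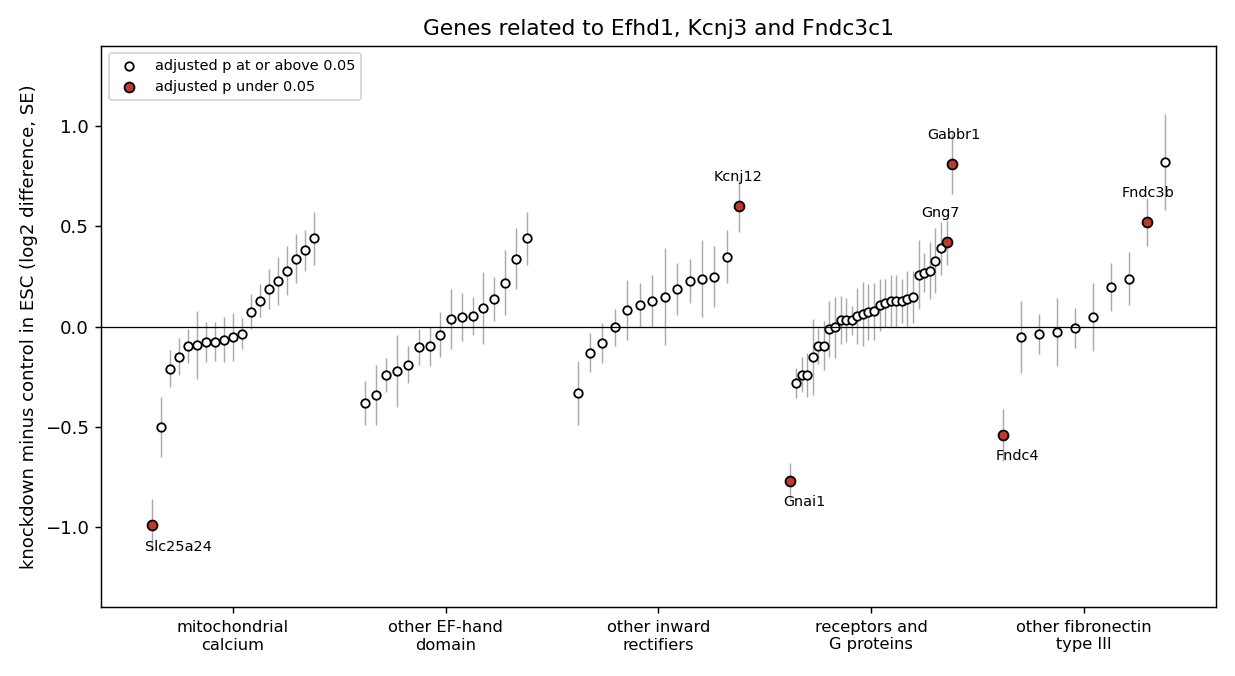
Knockdown minus control in ESC (log2, vertical axis; whiskers are SE) for the measured genes of 5 lists, ordered by size within each list; filled points passed limma's test at an adjusted p under 0.05. Slc25a24, at -0.99, has the largest fall shown, smaller than that of Efhd1, Kcnj3 or Fndc3c1.

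Genes beside the 3 on the chromosome were read to see whether neighbours moved too, using the 5 nearest measured genes on each side in the RefSeq order. Around Efhd1, 0 of 10 passed the test in knockdown ESC, where 5.21% of all genes did. The median difference of the 10 was 0.125, beside 0.017 over all genes. The direct neighbours of Efhd1, Eif4e2 and Gigyf2, had differences of -0.040 and 0.14. Around Kcnj3, 1 of 10 fell, where 3.37% of all genes did. It was Rprm, a gene induced by p53, at -0.42 ± 0.10 (SE, limma, adjusted p = 0.0347). Leaving out control ESC replicate 1 (adjusted p = 0.0682) or 3 (0.139), or knockdown ESC replicate 1 (0.0776), 2 (0.0929) or 3 (0.122), ended that call.

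Around Fndc3c1, 2 of 10 fell, where 3.37% of all genes did. Both lay on the same side of it. Cysltr1, a leukotriene receptor gene and the next measured gene, had means of 5.14 in knockdown ESC and 6.12 in control ESC, a change of -0.98 ± 0.17 (SE, limma, adjusted p = 0.00826). In knockdown cells it was under every array's lower quartile, so the size is rough. Lpar4, a lysophosphatidic acid receptor gene, had 8.88 in knockdown ESC and 9.95 in control ESC, a change of -1.06 ± 0.16 (SE, limma, adjusted p = 0.00383). Both calls held with any 1 array left out, with adjusted p up to 0.0454 for Cysltr1 and 0.0273 for Lpar4.

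The genes between them had differences near 0. Gm5127 and Rtl3, which lie between Cysltr1 and Lpar4, had differences of -0.038 and 0.006 and levels from 5.36 to 5.63 in ESC. Both were under every array's lower quartile, so a difference near 0 does not show that they were unchanged. Some other neighbours of the 3 genes were also that low, so the neighbour counts include genes that could hardly show a fall. Fnd3c2, next to Fndc3c1 on the other side, had 3.64 in knockdown ESC and 3.71 in control ESC, at the floor of the arrays. In NPC 0 of the 30 neighbours passed, where only 1.03% of all genes did. For Lpar4 the knockdown effects in NPC and ESC differed by 1.16 (limma, adjusted p = 0.0314), a call ended by 7 of the 12 arrays when left out (up to 0.0842) and by a replicate block (0.0513). Of all genes, 1.42% were called for such a difference, 267 genes, against 152 with the block. Lpar4 was higher in NPC, like Fndc3c1, by 0.85 (limma, adjusted p = 1.50e-05), while Cysltr1 fell by 0.55 (adjusted p = 0.00141).

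**Figure D5:**
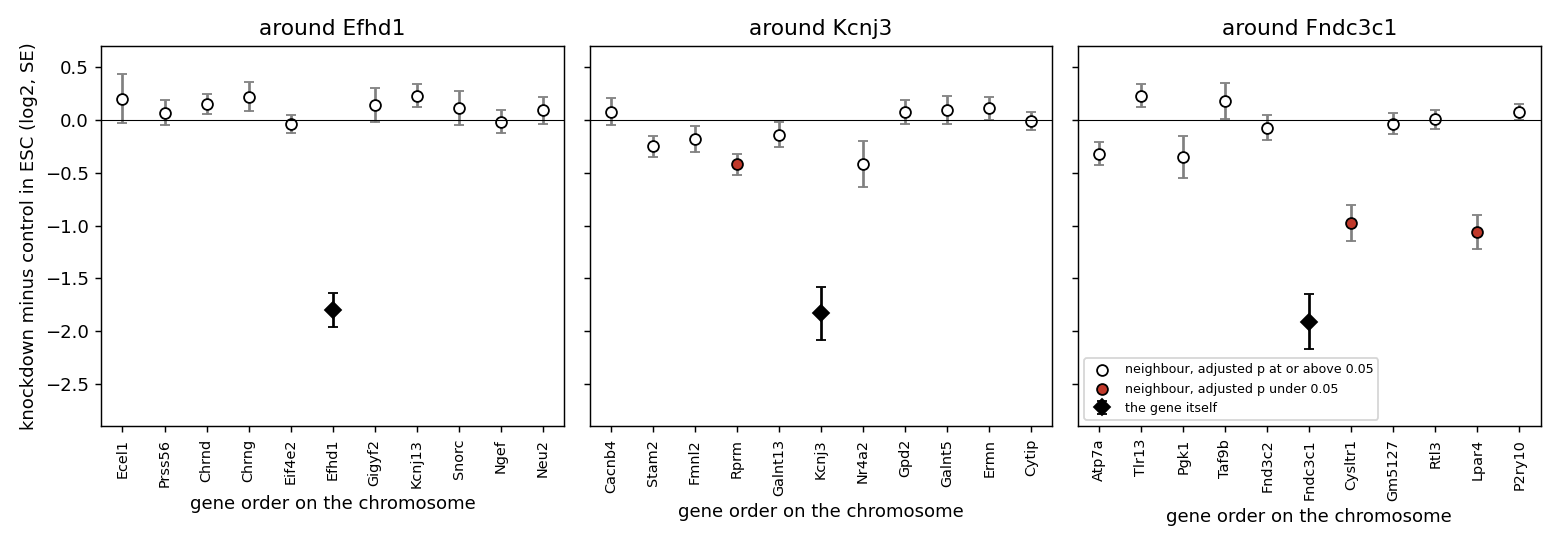
Knockdown minus control in ESC (log2, vertical axis; whiskers are SE) for each gene (diamond) and the 5 nearest measured genes on each side, in chromosome order; filled circles passed limma's test. Cysltr1 (-0.98) and Lpar4 (-1.06) lie below the other neighbours of Fndc3c1, and those of Efhd1 lie near 0.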

How the data were processed

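The values used are those the authors deposited, on the log2 scale, 1 for each probe set on each array. The submitters' processing notes name affy, RMA and limma; versions and genome build are not stated there or elsewhere in the sources used here. By its design RMA subtracts background, makes the probe distributions of arrays equal and combines the probes of a set, so differences between low values come out too small. Array medians were 7.70 to 7.79. Precision is limited by the number of arrays.

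Of 21212 probe sets, 18786 had 1 gene symbol, 6 had several and 2420 were not listed; 18775 matched a RefSeq gene table (GRCm38.p6) by Entrez ID, used for names and gene order. The probe set with the highest mean stood for each of 18784 genes. The 4 group means were estimated together, over all 12 arrays, in limma 3.58.1 (R 4.3.3; lmFit, contrasts.fit, eBayes; 8 residual and 4.81 prior degrees of freedom). Tests were two-sided; p-values were adjusted by Benjamini-Hochberg across the 18784 genes, with a threshold of 0.05. "Rose", "fell" and "called" mean past that threshold. Compared were knockdown minus control within ESC and within NPC, the NPC minus the ESC effect, and NPC minus ESC over both shRNAs. The fit was tested on simulated data. Control NPC and control ESC arrays with the same replicate number departed from their groups together in every pair (correlations of 0.266 to 0.334, with all 6 best with their own number), so for these groups the number pairs the arrays; the pairing comes from the data, not the labels, and a fit with the number as a block is given beside the results it changed.

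The genes, the 5 lists and the 8 marker lists were chosen with earlier results of these data known. Named were the 3 genes, Kdm5b, the 5 nearest profiles to each, every list gene or neighbour called in ESC, NPC or the difference, the highest and lowest of each list, and a few fixed relatives. Gbp2, Lef1, Sema6a, Thbs1, Tagln, Car3, Car2, Ccn1, Gbp2b, Drd2, Gnao1, Rgs4, Mcu, Micu2 and Fndc5 were named after their values were seen. So were the direct neighbours of Efhd1 and of Fndc3c1, and the genes between Cysltr1 and Lpar4. List genes without a value under their symbols were left out of the lists. Among these, Fndc3c2 is likely the gene annotated as Fnd3c2, which was read only as a neighbour of Fndc3c1. Tried as alternatives were a filter on low values (10625 genes kept), a replicate block, a trended robust prior, array weights, median centring, a further quantile normalization, averaged probe sets per gene, p-values adjusted over every row, a threshold of 0.01, a minimum size for the difference of effects, the 6 arrays of a contrast alone, and leaving out each array.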

Additional observations from a re-analysis of the deposited data

Results flagged for a closer look

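For 4 genes related to, or lying beside, Efhd1, Kcnj3 and Fndc3c1, the knockdown effect in NPC differed from that in ESC by limma's test of the difference itself. Slc25a24, the mitochondrial carrier gene, differed by 0.86 ± 0.179 (SE, adjusted p = 0.0397), with -0.12 in NPC and -0.99 in ESC. Gnai1 differed by 0.62 ± 0.129 (SE, adjusted p = 0.0397), with -0.15 in NPC and -0.77 in ESC. Lpar4, near Fndc3c1, differed by 1.16 ± 0.222 (SE, adjusted p = 0.0314), with 0.10 in NPC and -1.06 in ESC. Gabbr1 differed by -1.06 ± 0.209 (SE, adjusted p = 0.0356), with -0.24 in NPC and 0.81 in ESC. These calls rest on all 12 arrays. Of the 12 fits that each left out 1 array, 9 ended the call of Slc25a24, 9 that of Gnai1, 7 that of Gabbr1 and 7 that of Lpar4, with adjusted p up to 0.115, 0.115, 0.102 and 0.0842. A replicate block, which fits arrays of the same number together, ended the calls of Slc25a24 (0.0560), Gnai1 (0.0617) and Lpar4 (0.0513) and not that of Gabbr1 (0.0273). Efhd1, Kcnj3 and Fndc3c1 are not among these results because the same difference chose them.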

How the results depend on the processing

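The rise of Fndc3c1 and the falls of Efhd1 and Kcnj3 in NPC kept their direction and passed the test under all 21 alternatives; with 1 array left out they were 3.03 to 3.31, -1.98 to -1.85 and -2.57 to -2.26. Their ESC knockdown differences stayed negative under every alternative run, and with array weights they were -2.22, -1.78 and -2.11. These differences chose the genes on the same arrays, so the kept sign is a description and no support. With 1 array left out, the NPC differences were -0.31 to -0.22, -0.049 to 0.18 and -0.15 to 0.18, so the sign in NPC is not settled for Efhd1 and Kcnj3. For Fndc3c1, at -0.26 ± 0.26 (SE), the kept sign is again a description and no support. Counts of genes called over the whole table moved more. In ESC 979 genes were called, against 2887 with array weights, 500 with the 6 ESC arrays alone, 201 at a threshold of 0.01 and 193 to 1536 with 1 array left out. The extremes came without control ESC replicates 3 and 1; it was 621 without control ESC replicate 2, and 633, 472 and 283 without knockdown ESC replicates 1, 2 and 3. In NPC 194 were called, against 29 with the 6 NPC arrays alone, 64 at 0.01 and 83 to 247 with 1 array left out, with 98 without control NPC replicate 2 and 83 and 91 without knockdown NPC replicates 1 and 2. For the difference of effects 267 were called, against 955 with array weights, 18 at 0.01, 134 with a log2 difference of at least 1 and 35 to 546 with 1 array left out. The extremes came without knockdown NPC replicate 2 and control ESC replicate 1. The cause of the higher counts with array weights and without control ESC replicate 1 was not tested.

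Knockdown and control arrays of one state shared only a replicate number. Same-numbered arrays' deviations correlated at -0.026 to 0.092 in ESC and -0.173 to 0.192 in NPC for knockdown with control, and 3 and 2 of 6 arrays were most alike their own number. Control NPC and control ESC arrays did deviate together by number, and knockdown NPC and knockdown ESC arrays did not in every pair (-0.034 to 0.190). With a replicate block 965 genes were called in ESC, 174 in NPC, 152 for the difference and 10984 between states. Of the related genes, the block ended the calls of Gng7 (adjusted p = 0.0619) and Rprm (0.0553) in ESC, and of Slc25a24 (0.0560), Gnai1 (0.0617) and Lpar4 (0.0513) for the difference. Efhd2 passed in ESC with the block (0.0328) and with array weights (0.00572). With the 6 ESC arrays alone, Gng7 (0.0664), Fndc3b (0.0799), Fndc4 (0.0879) and Rprm (0.0559) lost the call. Array weights made Mcu (0.00715), Micu2 (0.0204), Efcab12 (0.0106) and Fndc1 (0.0241) pass in ESC. Mcu also passed with the filter on low values (0.0348), median centring (0.0498) and quantile normalization (0.0374), and Efcab12 with quantile normalization (0.0499). Signal near the floor limits Kcnj3 in NPC, its partner subunits, Cysltr1, Fnd3c2, Gm5127, Rtl3 and several other list genes and neighbours.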
